A study of Mus musculus with 6 samples.

Results

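The 52 genes described here encode the machinery of DNA replication: the factors that recognize and license origins, the replicative helicase and the proteins that fire it, the replicative DNA polymerases, the sliding clamp and its loader, the single-stranded DNA binding complex, and the enzymes and adaptors that work at the moving fork. They were chosen by name from a list of origin licensing, helicase, polymerase and fork genes, and all 52 were found among the 22380 gene identifiers of the deposited files. All 52 reached the minimum mean of 10 normalized counts over the 6 libraries and were among the 10524 genes tested. The libraries came from mouse embryonic stem cells (mESC), 3 *Ctrl* and 3 *Tet iTKO*. *Ctrl* cells carried *CreERT2*, a tamoxifen-activated Cre recombinase driven by the human ubiquitin C promoter, and the Cre-inducible *H2b-Egfp* reporter at *Gt(ROSA)26Sor*, each on 1 allele (wt/ki). *Tet iTKO* cells carried the same transgenes and floxed alleles of *Tet1*, *Tet2* and *Tet3*, which encode the enzymes that oxidize 5-methylcytosine, so both groups received Cre activity and the drug. Both groups grew on feeder fibroblasts under 2i conditions. The drug was 4-hydroxytamoxifen at 1 µM, present for the first 2.5 days and absent from the medium for the next 4. Sorting on day 6.5 took live cells positive for GFP and CD326 and lacking Thy1.2. A figure legend of the study also gives the cells sorted for these libraries as positive for SSEA1. By the study's methods, the populations of a genotype were derived from different embryos. The labels number the libraries of a group without tying them to embryos, and the p-values measure the spread between these libraries.

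Replication starts at origins bound by the origin recognition complex (ORC). In G1, ORC, CDC6 and CDT1 load the ring-shaped MCM helicase onto DNA in an inactive form, a step called licensing, and geminin blocks CDT1 after S phase begins so that no origin fires again in the same cycle. At the start of S phase, the DBF4-dependent kinase CDC7 and a set of firing factors recruit CDC45 and the GINS complex, which turn MCM into the active helicase. DNA polymerase alpha-primase lays down primers, polymerase epsilon extends the leading strand and polymerase delta the lagging strand, both held on DNA by the PCNA clamp. Mouse embryonic stem cells have a short G1 phase, divide fast and are known for high levels of many of these factors. Many of these genes are targets of E2F transcription factors, which act around the entry into S phase.

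Normalized counts summed to between 4210784 and 4219665 in the *Ctrl* libraries and between 3964824 and 3996522 in the *Tet iTKO* libraries. The reads on genes behind them, estimated from the gaps that rounding left in the values, ran from 3660000 to 5100000 per library. Over the whole gene, *Tet1* had normalized counts of 696, 682 and 716 in *Ctrl* libraries and of 787, 895 and 753 in *Tet iTKO* libraries, *Tet2* had 249, 170 and 230 against 233, 268 and 211, and *Tet3* had 28, 13 and 13 against 10, 3 and 3. By these totals, which include exons outside the floxed part and check the deletion only in part, *Tet3* was lower in the libraries labelled *Tet iTKO* (log2 fold change -1.67, adjusted p = 0.035), *Tet1* was higher (0.21, adjusted p = 0.026, but 0.03, adjusted p = 0.81, after the GC and length correction described further on) and *Tet2* did not pass the test. The summed level of 10 embryonic stem cell markers ran from 29606 to 30037 in *Ctrl* and from 25815 to 26749 in *Tet iTKO*, and none of these markers was at 0. Of the 10, 4 were lower and 2 higher as deposited, and 4 were lower and 3 higher after that correction. *Dppa5a*, the highest of them, had 11578, 11088 and 11011 in *Ctrl* libraries and 8136, 8809 and 8774 in *Tet iTKO* libraries. Its log2 fold change of -0.39 (adjusted p = 4.1e-10) turned to 0.13 after the correction (adjusted p = 0.0052). The summed level of 14 feeder fibroblast markers ran from 342 to 363 in *Ctrl* and from 558 to 638 in *Tet iTKO* (3 of 6 tested were higher and none lower, with *Twist2* at 0 or 1 in every library and *Postn* at 0 to 3). The 3 higher ones were *Col1a1*, *Col1a2* and *Col3a1*, and the other 3 tested, *Col5a1*, *Thy1* and *Acta2*, had no call. After the correction 2 of the 6 were higher, as *Col1a1* lost its call (0.24, adjusted p = 0.15). For 8 primitive endoderm markers the sums ran from 67 to 71 and from 125 to 178 (2 of 4 tested were higher, none lower). The 2 were *Col4a1*, with 25, 20 and 27 against 66, 105 and 88, and *Gata4*, which lost its call after the correction (adjusted p = 0.12). The other 2 tested, *Lama1* (0.88, adjusted p = 0.059) and *Sox7* (-1.19, adjusted p = 0.15), had no call. For 6 markers of 2-cell-like cells the sums ran from 9 to 24 and from 142 to 166 (4 of 4 tested were higher, with *Tdpoz4* at 0 throughout and *Zfp352* at 0 to 2). *Tcstv1*, *Tcstv3*, *Gm20767* and *Dux*, also listed as markers of such cells, were not found among the gene identifiers. The part of these cells in the results below was not tested. Medians of the log2 fold change by autosome lay between -0.06 and 0.07, and that of the X chromosome was -0.08. The summed level of 4 Y-linked genes ran from 615 to 652 in *Ctrl* and from 388 to 398 in *Tet iTKO*. Of these only *Eif2s3y* was called, with 363, 344 and 375 against 182, 181 and 178 (-0.995, adjusted p = 5.6e-09), and *Ddx3y*, *Kdm5d* and *Uty* did not pass the test. *Xist* was not found among the gene identifiers.

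Of the 52 replication genes, 24 were lower and 9 were higher in *Tet iTKO* than in *Ctrl* at an adjusted p under 0.05 (limma with Benjamini-Hochberg adjustment over all genes tested), and 19 did not pass the test. The lower genes made up 46.2% of the 52, where 18.4% of all genes tested were lower. The higher genes made up 17.3%, a share near the 16.4% of all genes tested. The median log2 fold change was -0.17 over the 52 genes and 0.01 over all genes tested. In 25 of the 52 the *Tet iTKO* libraries all lay below the *Ctrl* libraries, and in 8 they all lay above, where 22.9% and 21.2% of all genes tested did so. The changes were small: *Rpa3*, at -1.26, was the only member that differed by 1 or more on the log2 scale. The members' summed share of all normalized counts was 1.05 to 1.06% in *Ctrl* and 1.02 to 1.03% in *Tet iTKO*. In RNA from many cells, fewer cells in a given phase and less RNA per cell cannot be told apart.

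**Figure D1:**
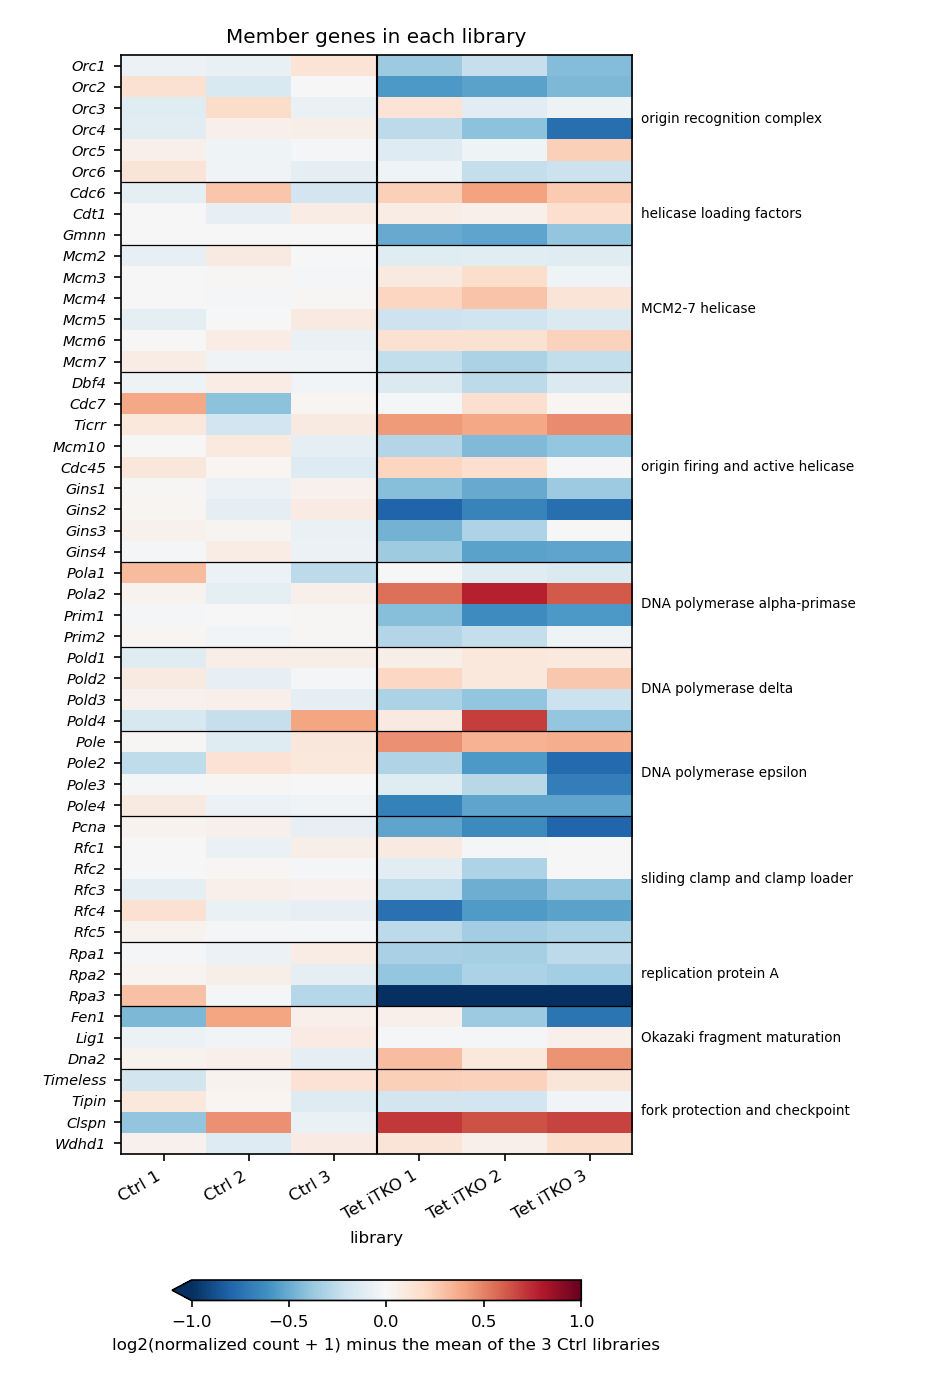
Heat map of the 52 replication genes (rows, grouped by complex or role) in the 3 *Ctrl* and 3 *Tet iTKO* libraries (columns). Colour gives log2(normalized count + 1) minus the mean of the 3 *Ctrl* libraries, with blue below and red above it and the scale ending at -1 and 1. The *Rpa1*, *Rpa2*, *Rpa3*, *Gins2*, *Pcna* and *Rfc4* rows are blue in all 3 *Tet iTKO* libraries, while *Pola2*, *Ticrr* and *Pole* are red in all 3.

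Across all genes tested, short transcripts tended to be lower and long ones higher in *Tet iTKO*, and a correction for transcript GC content and length in each library left 21 members lower (40.4%, with 18.8% of all genes lower) and 4 higher (7.69%, with 9.4% of all genes higher). Of the 24 members lower as deposited, 17 stayed lower after the correction, and of the 9 higher, 3 stayed higher (*Mcm4*, *Pola2* and *Clspn*). Calls also depended on how the spread of each gene was estimated. When the spread was not tied to expression 15 members were lower and 3 higher, beside 1217 lower and 1075 higher among the 10524 genes tested. The 15 calls lost in that fit were those of *Orc1*, *Orc4*, *Cdc6*, *Mcm2*, *Mcm4*, *Mcm5*, *Mcm6*, *Mcm7*, *Dbf4*, *Pold2*, *Pold3*, *Pole2*, *Pole3*, *Dna2* and *Clspn*. A set of 13 members passed in the same direction in all 11 alternative fits of the whole data and in all 6 fits that each left out 1 library. They were *Orc2*, *Mcm10*, *Gins2*, *Gins4*, *Prim1*, *Pole4*, *Pcna*, *Rfc4*, *Rfc5*, *Rpa1*, *Rpa2* and *Rpa3*, which were lower, and *Pola2*, which was higher. The same count over all genes tested is not given, so this set only lists stable calls.

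Promoter windows reaching from 250 bases before to 50 bases after the start were read from RefSeq (GRCm38.p6) for 43 of the 52 members. No window was used for *Gins1*, *Gins2*, *Gins4*, *Gmnn*, *Mcm4*, *Pole*, *Prim2*, *Rfc2* and *Tipin*. The windows of *Rpa3* and *Clspn* are shown because these members had the largest fall and the largest rise among those with a window, and those of *Mcm6* and *Mcm7* because these subunits of the same helicase moved in opposite directions and both have a window with E2F-type matches. *Mcm7* has another window, chr5:138171217-138171516, which held no such match and is not shown. The windows were chosen after their values were seen. Capitals mark each match to an E2F-type motif (TTTCCCGC, TTTGGCGC, TTTGCCGC or TTTCGCGC) or to the letters CCAAT, on either strand, and matches that overlap run together.
Rpa3, chr6:8259092-8259391, minus strand: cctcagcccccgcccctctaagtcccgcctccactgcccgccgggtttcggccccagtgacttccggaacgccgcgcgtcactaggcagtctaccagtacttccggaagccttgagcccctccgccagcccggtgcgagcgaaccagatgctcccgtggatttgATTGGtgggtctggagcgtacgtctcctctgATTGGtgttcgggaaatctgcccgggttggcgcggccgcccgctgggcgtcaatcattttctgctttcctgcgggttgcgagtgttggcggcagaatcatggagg
Clspn, chr4:126556730-126557029, plus strand: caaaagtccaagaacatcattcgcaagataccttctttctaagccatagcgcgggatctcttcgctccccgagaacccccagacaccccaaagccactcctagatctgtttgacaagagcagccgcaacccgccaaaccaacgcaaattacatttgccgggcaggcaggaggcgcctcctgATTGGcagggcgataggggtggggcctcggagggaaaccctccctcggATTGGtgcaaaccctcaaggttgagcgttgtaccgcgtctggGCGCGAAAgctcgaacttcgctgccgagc
Mcm6, chr1:128359656-128359955, minus strand: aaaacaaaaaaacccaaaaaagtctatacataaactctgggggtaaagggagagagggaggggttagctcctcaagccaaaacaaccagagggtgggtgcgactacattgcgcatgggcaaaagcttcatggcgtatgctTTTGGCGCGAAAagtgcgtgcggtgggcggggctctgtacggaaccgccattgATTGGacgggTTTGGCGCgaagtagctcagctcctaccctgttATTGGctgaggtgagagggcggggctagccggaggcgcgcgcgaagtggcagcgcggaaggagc
Mcm7, chr5:138171834-138172133, minus strand: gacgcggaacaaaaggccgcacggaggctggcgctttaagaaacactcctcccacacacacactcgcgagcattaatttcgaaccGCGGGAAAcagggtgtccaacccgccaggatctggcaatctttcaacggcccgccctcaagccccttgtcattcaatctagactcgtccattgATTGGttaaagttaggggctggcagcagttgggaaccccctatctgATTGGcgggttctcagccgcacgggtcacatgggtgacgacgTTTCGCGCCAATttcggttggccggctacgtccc

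An E2F-type motif was found in 18 of the 53 windows of members (34.0%), which belonged to 17 genes, and in 2.27% of all 32851 windows in the table. CCAAT was found in 26 member windows (49.1%) and in 37.4% of all windows, and the letters TTTGAA, the core of the cell cycle homology region, in 8 member windows (15.1%) and in 17.9% of all windows. Windows of higher, lower and uncalled members held an E2F-type motif in 3 of 8, 8 of 25 and 7 of 20 cases, so members that were higher, lower and uncalled all held it. *Mcm6*, which was higher, held 3 such matches and the window shown for *Mcm7*, which was lower, held 2. A match describes letters only. The windows in the table were not matched to those of members in GC content, and they include windows of genes not tested here.

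The origin recognition complex had 3 lower members, *Orc1*, *Orc2* and *Orc4*, and no higher one. *Orc1*, whose product is the subunit that comes and goes with the cell cycle, had normalized counts of 434, 431 and 497 in *Ctrl* libraries and of 352, 385 and 336 in *Tet iTKO* libraries (log2 fold change -0.34, standard error 0.10, adjusted p = 0.0046). *Orc2*, a core subunit, had 529, 429 and 476 against 320, 328 and 348 (log2 fold change -0.52, standard error 0.10, adjusted p = 5e-05). *Orc4*, another core subunit with ATPase-type folds, had 191, 214 and 215 against 172, 155 and 122 (log2 fold change -0.48, standard error 0.14, adjusted p = 0.0085). In all of these the groups did not overlap. The *Orc1* call was lost when the spread was not tied to expression (adjusted p = 0.062). The *Orc4* call was lost after the GC and length correction (-0.27, adjusted p = 0.15) and without *Tet iTKO* replicate 3, its lowest library (-0.34, adjusted p = 0.09). *Orc3*, *Orc5* and *Orc6*, which complete the complex, had log2 fold changes between -0.17 and 0.02 and overlapping groups.

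The helicase loading factors moved apart. *Gmnn*, which encodes geminin, the inhibitor of CDT1, was lower, with normalized counts of 913, 915 and 915 in *Ctrl* libraries and of 646, 634 and 696 in *Tet iTKO* libraries (log2 fold change -0.47, standard error 0.07, adjusted p = 2.1e-06). Its *Ctrl* libraries lay within 2 normalized counts of each other and all above the *Tet iTKO* libraries. *Cdc6*, the loader ATPase, was higher, with 420, 541 and 390 against 525, 588 and 535 (log2 fold change 0.30, standard error 0.10, adjusted p = 0.015). *Cdc6* groups overlapped through *Ctrl* replicate 2, and the call was lost without *Ctrl* replicate 1 (0.26, adjusted p = 0.063), *Ctrl* replicate 3 (0.20, adjusted p = 0.13) or *Tet iTKO* replicate 2 (0.25, adjusted p = 0.087). *Cdt1*, which brings MCM to ORC, had 1176, 1106 and 1234 against 1230, 1210 and 1312, a difference that did not pass the test (0.09, adjusted p = 0.27). After the GC and length correction, *Gmnn* had -0.16 (adjusted p = 0.088), *Cdc6* had 0.15 (adjusted p = 0.25) and *Cdt1* turned to -0.19 (adjusted p = 0.021).

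The log2 ratio of *Cdt1* to *Gmnn*, the licensing factor to its inhibitor, was 0.36, 0.27 and 0.43 in *Ctrl* and 0.93, 0.93 and 0.91 in *Tet iTKO*. It was higher in every *Tet iTKO* library than in any *Ctrl* library, by 0.57 on average (exact two-sided permutation test, p = 0.1, adjusted p = 0.3 over the 3 ratios computed). With 3 libraries against 3, 0.1 is the smallest p this test can give. *Cdt1* and *Gmnn* transcripts are 2189 and 1127 bases long with 58.8% and 49.8% GC, and after the GC and length correction, where *Cdt1* stood at -0.19 and *Gmnn* at -0.16, the gap between their fold changes was no longer there.

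The 6 genes of the MCM2-7 helicase, whose products form a ring with 1 copy of each, did not move together. *Mcm4* and *Mcm6* were higher, and *Mcm2*, *Mcm5* and *Mcm7* were lower. *Mcm4* had normalized counts of 1611, 1584 and 1613 in *Ctrl* libraries and of 1862, 1957 and 1748 in *Tet iTKO* libraries (log2 fold change 0.21, standard error 0.06, adjusted p = 0.0037). *Mcm6* had 2120, 2238 and 2037 against 2362, 2366 and 2504 (log2 fold change 0.18, standard error 0.05, adjusted p = 0.008). In both, the lowest *Tet iTKO* library stood above the highest *Ctrl* library. *Mcm7* had 2370, 2196 and 2206 against 1904, 1808 and 1900 (log2 fold change -0.27, standard error 0.05, adjusted p = 0.00013). For *Mcm5* the values were 2538, 2707 and 2872 against 2335, 2352 and 2449 (log2 fold change -0.18, standard error 0.05, adjusted p = 0.0056). These groups did not overlap either. The *Mcm2* values were 4322, 4873 and 4562 against 4221, 4238 and 4221 (log2 fold change -0.12, standard error 0.05, adjusted p = 0.047). The *Mcm2* groups did not overlap, and its adjusted p was the highest among the called members.

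*Mcm3* had normalized counts of 1898, 1902 and 1869 in *Ctrl* libraries and of 2013, 2139 and 1838 in *Tet iTKO* libraries, and did not pass the test (0.08, adjusted p = 0.31). *Mcm4*, *Mcm2*, *Mcm5* and *Mcm7* kept their direction and call after the GC and length correction, with 0.24, -0.42, -0.30 and -0.41, while *Mcm6* lost its call (0.11, adjusted p = 0.12). None of the 5 calls held when the spread was not tied to expression, where adjusted p ran from 0.06 for *Mcm7* to 0.35 for *Mcm2*. With libraries scaled to equal totals, *Mcm2* (-0.03) and *Mcm5* (-0.10) lost their calls and *Mcm3* (0.16, adjusted p = 0.024) gained one, and under quantile normalization *Mcm2* turned to 0.05 without a call. *Mcm2* also lost its call in 5 of the 6 fits that left out 1 library, and kept it only without *Ctrl* replicate 1, with the smallest difference without *Ctrl* replicate 2 (-0.07, adjusted p = 0.31). *Mcm5* lost it without *Ctrl* replicate 3 (-0.14, adjusted p = 0.06), and *Mcm6* without *Ctrl* replicate 3 (0.15, adjusted p = 0.055) or *Tet iTKO* replicate 3 (0.15, adjusted p = 0.059).

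Among the 9 genes of origin firing and the active helicase, 5 were lower and 1 was higher. The GINS complex, which joins MCM and CDC45 in the active helicase, had 3 of its 4 genes lower. *Gins2* had normalized counts of 589, 544 and 615 in *Ctrl* libraries and of 334, 365 and 345 in *Tet iTKO* libraries (log2 fold change -0.74, standard error 0.09, adjusted p = 2.4e-08). *Gins4* had 567, 605 and 552 against 448, 395 and 398 (log2 fold change -0.47, standard error 0.09, adjusted p = 4.4e-05). *Gins1* had 267, 255 and 274 against 197, 187 and 206 (log2 fold change -0.43, standard error 0.12, adjusted p = 0.0041). None of the 3 had overlapping groups. *Gins3* had 92, 91 and 85 against 64, 72 and 89, with overlap through 1 library and no call (-0.26, adjusted p = 0.34). After the GC and length correction, *Gins2* stood at -0.97 (adjusted p = 4.1e-11), *Gins4* at -0.30 (adjusted p = 0.0082) and *Gins1* at -0.05 (adjusted p = 0.82).

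*Mcm10*, a scaffold that helps the helicase start to move, had normalized counts of 956, 1022 and 897 in *Ctrl* libraries and of 782, 703 and 730 in *Tet iTKO* libraries (log2 fold change -0.38, standard error 0.07, adjusted p = 8.7e-05). *Ticrr*, which encodes Treslin, a firing factor that brings CDC45 to MCM, was the only gene of this class that was higher, with 441, 359 and 437 against 553, 536 and 571 (log2 fold change 0.43, standard error 0.09, adjusted p = 0.00028). The groups of *Mcm10* and of *Ticrr* lay apart, with no overlap. *Ticrr* has the longest transcript of the 52, 7199 bases, and its difference was 0.04 after the GC and length correction (adjusted p = 0.78). *Dbf4*, the activator of the CDC7 kinase, had 935, 1021 and 948 against 875, 808 and 873 (log2 fold change -0.18, standard error 0.07, adjusted p = 0.036), and the call was lost after the correction (-0.03, adjusted p = 0.79), with equal totals (-0.10, adjusted p = 0.28) and without *Ctrl* replicate 2, *Tet iTKO* replicate 2 or *Tet iTKO* replicate 3 (-0.14, -0.15 and -0.20). The *Dbf4* groups did not overlap. *Cdc7* itself had 169, 97 and 131 against 127, 144 and 131, a spread in *Ctrl* that covered the whole *Tet iTKO* range. *Cdc45* had 355, 333 and 301 against 382, 370 and 328 and did not pass the test (0.13, adjusted p = 0.36).

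The log2 ratio of *Dbf4* to *Cdc7* averaged 2.90 ± 0.46 in *Ctrl* and 2.66 ± 0.16 in *Tet iTKO* (SD, n = 3 each). Its difference of -0.24 was smaller than the spread between *Ctrl* libraries (exact two-sided permutation test, p = 0.5, adjusted p = 0.5) and was 0.01 without *Ctrl* replicate 2, the library with the lowest *Cdc7* value.

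DNA polymerase alpha-primase had 1 gene higher and 1 lower, both by over 0.5 on the log2 scale. *Pola2*, which encodes the accessory subunit of polymerase alpha, had normalized counts of 623, 571 and 628 in *Ctrl* libraries and of 888, 1041 and 927 in *Tet iTKO* libraries (log2 fold change 0.65, standard error 0.08, adjusted p = 1.5e-08). *Prim1*, the catalytic primase subunit that makes the RNA primer, had 710, 717 and 722 against 534, 463 and 482 (log2 fold change -0.54, standard error 0.08, adjusted p = 1.5e-06). The groups of both genes were far apart, and the differences after the GC and length correction were 0.50 (adjusted p = 2.3e-06) and -0.26 (adjusted p = 0.011). *Prim2*, the regulatory primase subunit, had 348, 337 and 347 against 281, 292 and 334, which did not overlap but did not pass the test (-0.19, adjusted p = 0.15). *Pola1*, the catalytic polymerase subunit and the only X-linked member, had 247, 190 and 165 against 198, 182 and 179 (-0.09, adjusted p = 0.67). *Pola2* (ENSMUSG00000024833.8) is annotated at chr19:5940542-5964202 (GRCm38), minus strand.

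In DNA polymerase delta, *Pold3* was lower and *Pold2* higher. *Pold3*, an accessory subunit that binds PCNA, had normalized counts of 789, 794 and 720 in *Ctrl* libraries and of 617, 583 and 660 in *Tet iTKO* libraries (log2 fold change -0.31, standard error 0.08, adjusted p = 0.0017). The *Pold3* groups did not overlap, the difference after the correction was -0.32, and the call was lost when the spread was not tied to expression (adjusted p = 0.061). *Pold2*, the subunit that bridges the catalytic and accessory ones, had 1006, 894 and 940 against 1092, 1020 and 1139 (log2 fold change 0.20, standard error 0.07, adjusted p = 0.024). The *Pold2* groups were only 14 normalized counts apart at their nearest, and the call was lost after the correction (0.05, adjusted p = 0.64) and without *Ctrl* replicate 2, *Ctrl* replicate 3, *Tet iTKO* replicate 1 or *Tet iTKO* replicate 3 (0.15, 0.19, 0.19 and 0.16). *Pold1*, the catalytic subunit, had 1352, 1541 and 1533 against 1535, 1581 and 1580, with no call as deposited (0.09, adjusted p = 0.27), a call upward with equal totals (0.17, adjusted p = 0.023) and a call downward after the GC and length correction (-0.49, adjusted p = 9.4e-09). Its transcript has 60.7% GC, the highest of the 52. *Pold4*, the smallest subunit, had between 17 and 37 normalized counts in every library and no difference was detectable at this depth (0.13, adjusted p = 0.83).

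In DNA polymerase epsilon all 4 genes were called, with the catalytic subunit higher and all 3 accessory subunits lower. *Pole*, the catalytic subunit, had normalized counts of 243, 221 and 260 in *Ctrl* libraries and of 331, 307 and 310 in *Tet iTKO* libraries (log2 fold change 0.39, standard error 0.11, adjusted p = 0.0052). *Pole4*, a small histone-fold subunit, had 790, 714 and 725 against 465, 516 and 514 (log2 fold change -0.58, standard error 0.08, adjusted p = 4.6e-07). *Pole2*, the subunit that ties the polymerase to the helicase, had 185, 244 and 237 against 179, 148 and 128 (log2 fold change -0.55, standard error 0.14, adjusted p = 0.0028). In each of these 3 genes the groups did not overlap. *Pole3*, the histone-fold partner of *Pole4*, had 238, 243 and 241 against 221, 198 and 149 (log2 fold change -0.36, standard error 0.13, adjusted p = 0.031). The *Pole3* groups did not overlap, but the *Tet iTKO* libraries spread widely. The *Pole3* call rested on *Tet iTKO* replicate 3, without which the difference was -0.20 (adjusted p = 0.28), and it was also lost without *Ctrl* replicate 1, 2 or 3 (-0.37, -0.36 and -0.36, adjusted p = 0.057, 0.079 and 0.059). The *Pole* transcript is 7163 bases long and those of the other 3 are between 1706 and 1805 bases, and after the GC and length correction only *Pole4* kept its call (-0.30, adjusted p = 0.0033), with *Pole* at 0.02, *Pole2* at -0.30 and *Pole3* at -0.25.

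The sliding clamp and its loader had 4 lower genes and none higher. *Pcna* encodes the ring that holds polymerases on DNA, and it had normalized counts of 1236, 1253 and 1140 in *Ctrl* libraries and of 837, 778 and 698 in *Tet iTKO* libraries (log2 fold change -0.65, standard error 0.07, adjusted p = 3.3e-09). *Rfc4*, a small subunit of the replication factor C clamp loader, had 651, 559 and 553 against 349, 395 and 405 (log2 fold change -0.62, standard error 0.09, adjusted p = 1.4e-06). All 3 *Tet iTKO* libraries were below all 3 *Ctrl* libraries in both. *Rfc5*, another small subunit, had 1824, 1758 and 1756 against 1487, 1395 and 1431 (log2 fold change -0.31, standard error 0.06, adjusted p = 4.9e-05). All of these were also lower after the correction, with -0.39 for *Pcna*, -0.25 for *Rfc4* and -0.31 for *Rfc5*. *Rfc3* had 542, 600 and 597 against 487, 412 and 440 (log2 fold change -0.38, standard error 0.09, adjusted p = 0.00076) and lost its call there (-0.14, adjusted p = 0.26). Neither *Rfc5* nor *Rfc3* had overlapping groups. *Rfc2* had 970, 982 and 963 against 900, 784 and 967, without a call as deposited (-0.14, adjusted p = 0.13) and with one after the correction (-0.36, adjusted p = 0.00015). *Rfc1*, the large subunit that opens the clamp, had 550, 522 and 571 against 584, 544 and 549, with fully overlapping groups (0.03, adjusted p = 0.81). *Pcna* (ENSMUSG00000027342.7) is annotated at chr2:132249162-132253314 (GRCm38), minus strand.

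Replication protein A coats single-stranded DNA behind the helicase, and all 3 of its genes were lower in *Tet iTKO*. *Rpa3*, the smallest subunit, had normalized counts of 384, 311 and 256 in *Ctrl* libraries and of 107, 133 and 154 in *Tet iTKO* libraries, or 317 ± 64.2 against 131 ± 23.5 (SD, n = 3 each), 41.4% of the *Ctrl* mean (log2 fold change -1.26, standard error 0.14, adjusted p = 9.1e-09). *Rpa2*, the subunit phosphorylated when replication is stressed, had 1390, 1414 and 1281 against 1038, 1090 and 1072 (log2 fold change -0.35, standard error 0.06, adjusted p = 3.2e-05). *Rpa1*, the large DNA-binding subunit, had 2242, 2181 and 2394 against 1814, 1800 and 1895 (log2 fold change -0.31, standard error 0.05, adjusted p = 2.6e-05). No group overlapped another in this complex. After the GC and length correction the log2 fold changes were -0.80, -0.32 and -0.47, all with calls. *Rpa3* has the shortest transcript of the 52, 670 bases, and *Rpa1* the longest among the lower members, 5077 bases. *Rpa3* (ENSMUSG00000012483.4) is annotated at chr6:8255936-8259173 (GRCm38), minus strand.

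The enzymes of Okazaki fragment maturation, which join the pieces of the lagging strand, were mostly uncalled. *Dna2*, a nuclease and helicase that trims long flaps, had normalized counts of 302, 305 and 277 in *Ctrl* libraries and of 364, 316 and 402 in *Tet iTKO* libraries (log2 fold change 0.29, standard error 0.11, adjusted p = 0.033). The *Dna2* groups did not overlap, with *Tet iTKO* replicate 2 closest to *Ctrl*. The *Dna2* call was lost after the correction (0.18, adjusted p = 0.21) and without *Ctrl* replicate 3, *Tet iTKO* replicate 1 or *Tet iTKO* replicate 3 (0.24, 0.27 and 0.20). *Lig1*, the ligase that seals the fragments, had 1345, 1372 and 1481 against 1390, 1389 and 1446, a difference of 0.01 as deposited (adjusted p = 0.92) and of -0.15 after the correction (adjusted p = 0.046). *Fen1*, the flap nuclease, had only 27 to 60 normalized counts in any library and overlapping groups (-0.35, adjusted p = 0.41). Of its exonic bases 84.2% are shared with genes on the opposite strand, so these values may not give its level.

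Of the fork protection and checkpoint genes, *Clspn* was higher and the others did not pass the test. *Clspn* encodes claspin, the adaptor that lets ATR activate CHK1 at stalled forks and that sets fork speed with its partners. *Clspn* had normalized counts of 61, 111 and 77 in *Ctrl* libraries and of 132, 126 and 129 in *Tet iTKO* libraries (log2 fold change 0.67, standard error 0.19, adjusted p = 0.0063), the largest rise among the members and from one of their lowest levels. The *Tet iTKO* libraries lay within 6 normalized counts of each other while the *Ctrl* libraries spread over 50. The *Clspn* call held after the correction (0.50, adjusted p = 0.048) but not without *Ctrl* replicate 1, its lowest library (0.48, adjusted p = 0.06), nor when the spread was not tied to expression (adjusted p = 0.076). *Clspn* (ENSMUSG00000042489.9) is annotated at chr4:126556935-126593903 (GRCm38), plus strand.

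*Timeless* and *Tipin* encode partners that travel with the helicase and hold it to the polymerases. *Timeless* had normalized counts of 411, 478 and 517 in *Ctrl* libraries and of 550, 548 and 508 in *Tet iTKO* libraries (0.20, adjusted p = 0.087), with a call upward when libraries were scaled to equal totals (0.28, adjusted p = 0.013) and no call, with the opposite sign, after the GC and length correction (-0.15, adjusted p = 0.22). *Tipin* had 1299, 1219 and 1103 against 1059, 1055 and 1180 (-0.14, adjusted p = 0.12) and turned to 0.19 after the GC and length correction (adjusted p = 0.027). The log2 ratio of *Timeless* to *Tipin* was -1.37 ± 0.28 in *Ctrl* and -1.03 ± 0.16 in *Tet iTKO* (SD, n = 3 each), a difference of 0.33 with overlapping groups (exact two-sided permutation test, p = 0.2, adjusted p = 0.3). After the correction the fold change of *Timeless* (-0.15) was below that of *Tipin* (0.19), so the gap had the opposite sign. *Wdhd1*, which couples polymerase alpha to the helicase, had 382, 340 and 394 against 406, 384 and 420 (0.12, adjusted p = 0.36).

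**Figure D2:**
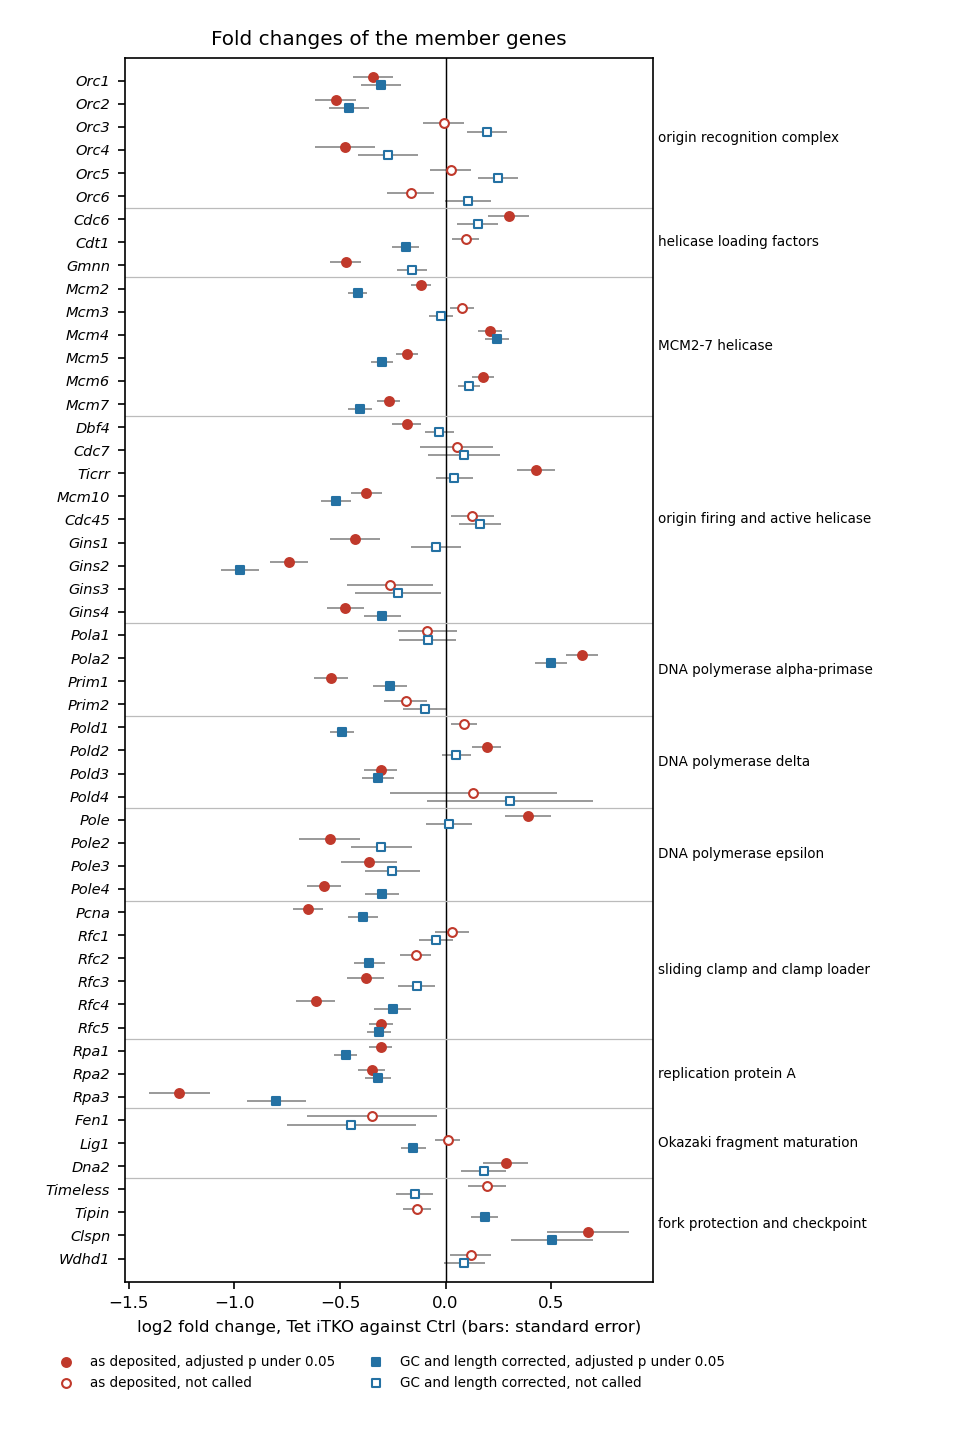
Log2 fold changes of the 52 replication genes, *Tet iTKO* against *Ctrl*, with bars of 1 standard error. Red circles are values as deposited and blue squares values after correction for transcript GC content and length, filled at an adjusted p under 0.05 (limma). *Rpa3* stands farthest left at -1.26 and -0.80, *Pola2* and *Clspn* stay on the right in both, and of the 9 members that change sides, *Pold1*, *Cdt1*, *Lig1* and *Tipin* have a call after the correction.

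The direction of the fold change went with transcript length among the members as it did among all genes. The Spearman correlation of log2 fold change with the length of the longest annotated transcript was 0.49 across the 52 members and 0.32 across 10457 genes, and that with GC content was 0.39 and 0.25. These are descriptions across genes of the same 6 libraries, and genes are not independent replicates. Among 17 members with transcripts under 2000 bases, 12 were lower and 1 was higher (*Pold2*), with a median log2 fold change of -0.43, where 37.3% of all 2707 such genes were lower, 9.01% were higher and the median was -0.21. Among 21 members of 2000 to 4000 bases, 9 were lower and 2 higher with a median of -0.12, beside 16.2% lower, 16.2% higher and a median of 0.02 for all such genes. Among the 14 members of 4000 bases or more, 3 were lower (*Orc4*, *Mcm10* and *Rpa1*) and 6 were higher, with a median of 0.15 beside 0.16 for all such genes, of which 6.34% were lower and 22.7% higher. After the correction the Spearman correlation with length was 0.01 across the members, whose median log2 fold change was then -0.16 beside -0.06 for all genes. The correction also moved the split of calls over all genes, from 1731 higher and 1934 lower to 983 higher and 1962 lower, and scaling to equal totals moved it to 2319 higher and 1428 lower. Whether the trend came from the cells or from the libraries was not tested.

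**Figure D3:**
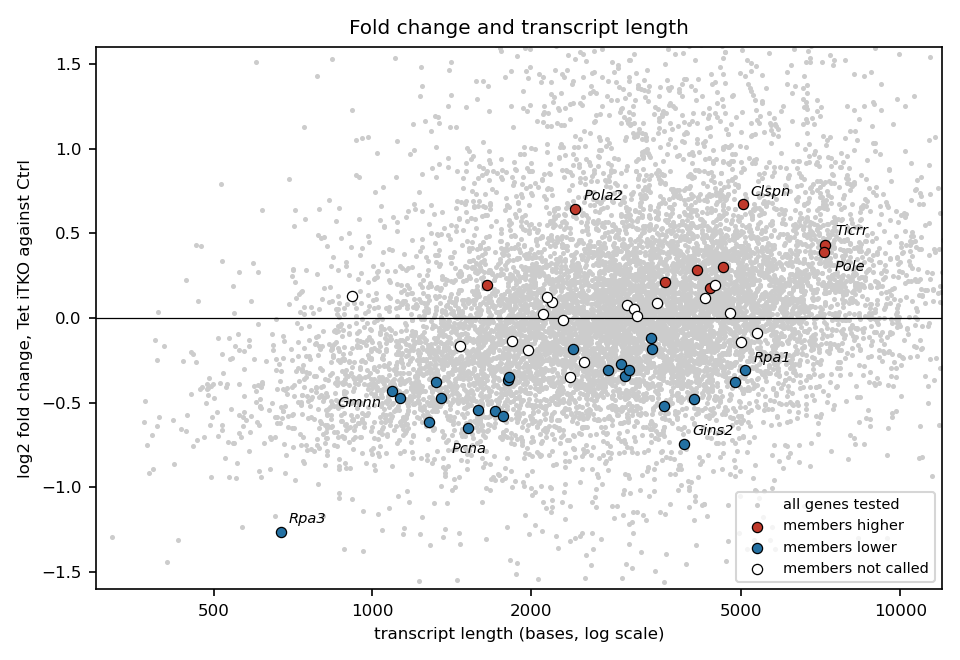
Log2 fold change, *Tet iTKO* against *Ctrl*, against the length of the longest annotated transcript in bases (log axis). Grey points are 10457 genes tested, of which 393 lie outside the plotted range, and large points are the 52 members, red where higher, blue where lower and white where not called. Blue members sit mostly on the left, with *Rpa3* lowest at 670 bases, and the higher members *Ticrr* and *Pole* lie at 7199 and 7163 bases.

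Levels per kb of exonic length, which allow different genes to be set side by side, placed most members high in the transcriptome. The median of the 52 in *Ctrl* was 136 normalized counts per kb, the median of 10457 genes tested was 29.4, and 46 of the 52 members lay above the latter. On this scale the MCM2-7 genes ran from 447 per kb for *Mcm4* to 678 for *Mcm5* in *Ctrl*, a range of 1.52-fold, and from 423 for *Mcm7* to 608 for *Mcm2* in *Tet iTKO*, a range of 1.44-fold. *Mcm4* and *Mcm6*, the lowest subunits of the ring in *Ctrl*, were those that were higher in *Tet iTKO*. *Mcm4* (447 ± 4.51) and *Mcm6* (457 ± 21.6) did not differ in *Ctrl* beyond their spread, nor did *Mcm3* (504 ± 4.80) and *Mcm7* (510 ± 22.1), nor *Mcm2* (659 ± 39.7) and *Mcm5* (678 ± 41.8, SD, n = 3 each). The order and the closeness depend on the length used: per kb of the longest transcript the *Ctrl* means ran from 447 for *Mcm4* and 489 for *Mcm6* through 623 for *Mcm3*, 762 for *Mcm7* and 800 for *Mcm5* to 1360 for *Mcm2*.

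In replication protein A, *Ctrl* levels per kb of exonic length ran from 279 ± 56.5 per kb for *Rpa3* through 407 ± 19.7 for *Rpa1* to 455 ± 23.7 for *Rpa2*, a range of 1.63-fold, and *Tet iTKO* levels from 116 ± 20.7 through 329 ± 9.19 to 356 ± 8.82 (SD, n = 3 each), a range of 3.08-fold. Per kb of the longest transcript the *Ctrl* order differed, with *Rpa1* at 448, *Rpa3* at 473 and *Rpa2* at 751. In the origin recognition complex *Orc4* was lowest in both groups (27.7 and 20.1 per kb of exonic length), and in *Ctrl* also per kb of the longest transcript (50.8). The highest in *Ctrl* was *Orc1* by exonic length (130) and *Orc6* by the longest transcript (202). The polymerases were uneven: in polymerase epsilon the catalytic *Pole* had 21.6 per kb and the histone-fold *Pole4* 296 in *Ctrl*, a range of 13.7-fold that was 7.01-fold in *Tet iTKO*. In polymerase alpha-primase, *Prim1* (185 and 127 per kb) was above *Pola1* (22.8 and 21.1) by 8.13-fold and 6.03-fold. *Clspn* had the lowest level of all members in *Ctrl*, 11.6 per kb. Such values divide by all annotated exons of a gene, so genes with rarely used exons come out low.

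**Figure D4:**
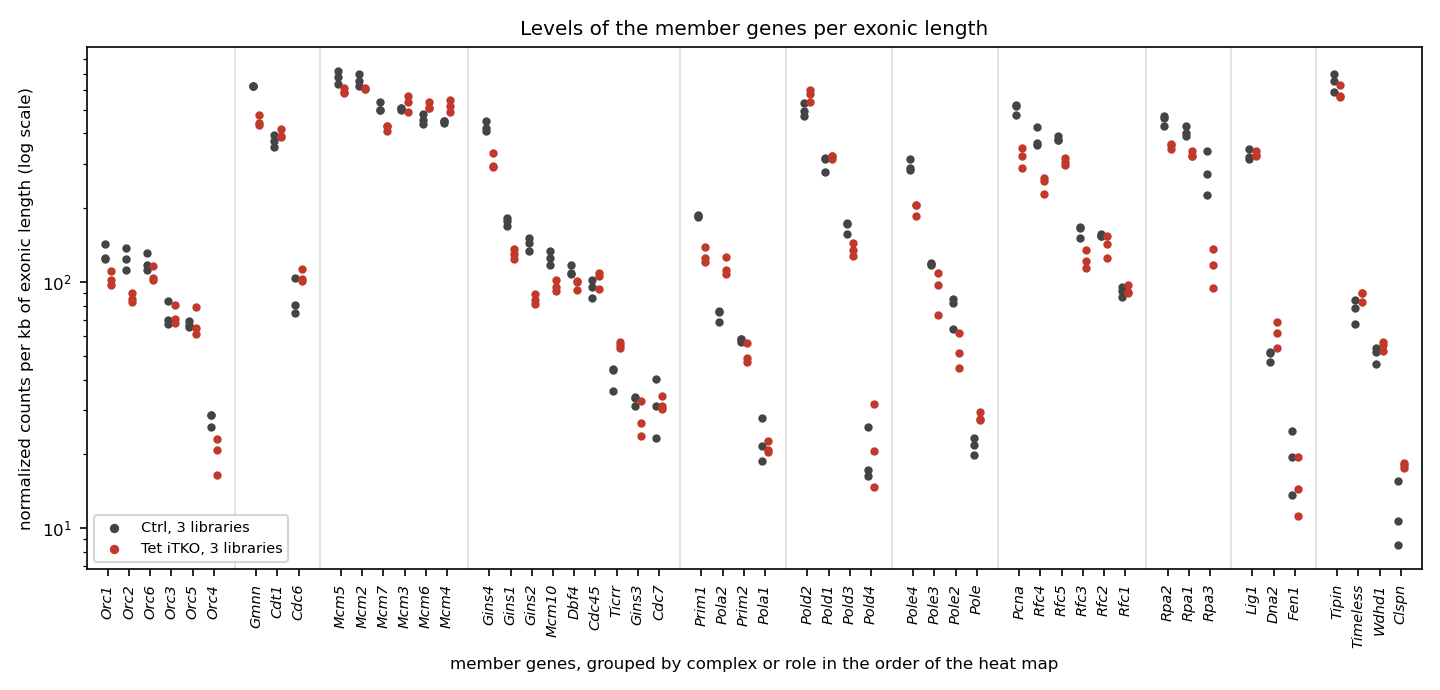
Normalized counts per kb of exonic length (log axis) for each of the 52 replication genes, grouped by complex or role and sorted within it by the *Ctrl* mean. Grey points are the 3 *Ctrl* libraries and red points the 3 *Tet iTKO* libraries. The red *Rpa3* points lie below its grey points and the red *Pola2* points above its grey points, each without overlap.

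Some members cannot be counted cleanly. The libraries did not keep the strand, yet the authors counted reads with the stranded setting of HTSeq. Reads of genes that overlap on opposite strands may thus have been credited to either gene or dropped, which was not tested. Unique alignments alone were used. For 17 of the 52, over 5% of the exonic bases are shared with another gene or over 5% of the transcript has a near-identical copy elsewhere. The other 35 members had 15 lower (42.9%) and 8 higher (22.9%), where 18.4% of all genes tested were lower and 16.4% higher. After the GC and length correction these 35 had 34.3% lower and 11.4% higher, where all genes had 18.8% and 9.4%. *Gins2* shares 67.3% of its exonic bases with *Gse1* on the opposite strand, which had normalized counts of 115, 95 and 71 in *Ctrl* libraries and of 151, 152 and 139 in *Tet iTKO* libraries and so moved the other way (0.67, adjusted p = 0.0029). *Orc2* shares 29.8% with *Nif3l1*, which was also lower (-0.40, adjusted p = 0.0012). *Rfc4* shares 12.7% with *Eif4a2*, which had 950 to 1171 normalized counts and no call (-0.04, adjusted p = 0.72). *Rfc5* shares 10.7% with *Wsb2*, which was also lower (-0.31, adjusted p = 0.0064). *Fen1* shares 84.2% with *Tmem258* and *Gm10143*, so its 27 to 60 normalized counts may not give its level. *Tmem258* was lower, with 722, 638 and 723 against 493, 570 and 521 (-0.39, adjusted p = 0.00023). Near-identical copies cover 72.8% of the *Mcm7* transcript (*Gm5487*), 51.4% of that of *Pcna* (*Pcna-ps2*) and 33.0% of that of *Cdc6* (*Gm9430*). Near-identical stretches in several genes cover 41.3% of the *Rfc5* transcript, the longest ones in *Gm12870*, *Sox1ot*, *Kctd20*, *Qprt* and *Abcd4*. Reads from those parts of the 4 transcripts may have been dropped in all 6 libraries alike.

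Of 70 further genes of the replication fork and its supply, 69 were tested, with 20 lower and 7 higher, a median log2 fold change of -0.06, and 24 lower and 5 higher after the GC and length correction. Over all genes tested 18.4% were lower and 16.4% higher, and after the correction 18.8% and 9.4%. The nucleotide supply genes, which make the building blocks of DNA, had 7 of 12 lower and 1 higher. Among them *Nme1*, a nucleoside diphosphate kinase, had normalized counts of 539, 484 and 506 in *Ctrl* libraries and of 322, 367 and 342 in *Tet iTKO* libraries (log2 fold change -0.57, adjusted p = 6.7e-06), and *Dctpp1*, which clears dCTP, had 2154, 2257 and 2310 against 1410, 1685 and 1519 (log2 fold change -0.55, adjusted p = 3.2e-09). Alternative clamp loaders and clamp partners had 3 of 7 lower and 1 higher, among them *Pclaf*, a PCNA-binding factor that fell beside *Pcna*, with 183, 247 and 197 against 109, 130 and 122 (log2 fold change -0.78, adjusted p = 7.1e-05). *Dscc1*, a subunit of the loader that aids cohesion, had 128, 136 and 140 against 85, 82 and 81 (log2 fold change -0.70, adjusted p = 0.0017). None of the 4 genes had overlapping groups. *Rnaseh2b*, a subunit of the enzyme that removes ribonucleotides from DNA, had 513, 472 and 476 against 253, 403 and 334 (log2 fold change -0.58, adjusted p = 7.9e-05), again without overlap. It belongs to a list of primer and flap removal genes, of which 2 of 6 were lower and 1 was higher.

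In the list of fork restart and protection genes 5 of 17 were lower and 1 was higher. *Khdc3* fell most, from 481, 625 and 646 normalized counts in *Ctrl* to 83, 100 and 119 in *Tet iTKO* (log2 fold change -2.53, adjusted p = 6e-17), and *Ooep* from 628, 556 and 604 to 367, 387 and 375 (log2 fold change -0.66, adjusted p = 1.5e-07). The groups of both genes were far apart. Their products are known to help embryonic stem cells restart stalled forks. Chromatin assembly genes had 3 higher and 2 lower of 13, a balance that turned to 1 higher and 6 lower after the GC and length correction. Origin firing and helicase partners had 1 lower and none higher of 11, and the 3 topoisomerase genes had no call as deposited and 1 higher after the correction. Among G1/S cyclins and E2F factors 8 of 23 were higher and 3 lower (4 and 4 after the correction), and among mitotic genes 2 of 20 were higher and 6 lower (none and 8 after it). The part of the cell cycle distribution in the members' values was not tested.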

How the data were processed

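RNA was measured in 3 *Ctrl* and 3 *Tet iTKO* libraries. The authors made Smart-Seq2 libraries from poly(A) RNA, without strand or molecular identifiers, kept the uniquely aligned read pairs from STAR, assigned them to genes with HTSeq 0.7.1 in its stranded setting and divided by DESeq2 1.26.0 size factors (R 3.5.2). The submitters' notes name mm9. What the authors deposited was rounded to integers, so the unit is a score (a size-factor-normalized count), not a read count.

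Names, lengths and GC content came from GENCODE M21 (GRCm38), which gave a symbol to 20775 of 22380 identifiers. The test was limma 3.58.1 (lmFit and eBayes with a trend, R 4.3.3) on log2(normalized count + 1). It covered the 10524 genes whose mean reached 10, p-values were adjusted over them by the Benjamini-Hochberg method, and a change was called at an adjusted p under 0.05. Fold changes are on this log2 scale and understate those of low genes. The correction subtracted, per library, a joint loess fit on GC content and transcript length (span 0.3). Ratios were tested with an exact permutation test (SciPy 1.17.1). Near-identical copies were found with BLAST 2.17.0 (identity of at least 95% over at least 100 bases). Reads behind each library were estimated, so depth is approximate, and the summed values are not depths.

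Every member is described. Other replication genes are named where the adjusted p was under 0.05 and the log2 fold change at least 0.5 in size. Cell type markers are given as sums and counts of calls, with some genes named. The members and lists were chosen with earlier results of these data known, so counts over them are descriptions. Alternatives were other pseudocounts, filters, scalings, eBayes without trend, a replicate block, the GC and length correction and leaving out each library. Replicates with the same number did not deviate together.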

Additional observations from a re-analysis of the deposited data

How the results depend on the processing

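Member calls split 9 higher and 24 lower, and under the alternatives these counts left the range of 1.5 times only as follows. eBayes without the trend gave 3 higher and 15 lower members, 2 higher other replication genes, and 1075 higher and 1217 lower genes overall. The GC and length correction gave 4 higher members and 983 higher genes, and with the replicate block added 5 and 1004. A fold of 1 on the log2 scale gave 0 higher and 1 lower members, 0 higher and 1 lower other replication genes, and 521 higher and 137 lower genes. Without the 17 members that share sequence, an alternative chosen after seeing the data, 15 of 35 members were lower (42.9%, with 18.4% of all genes tested lower). Quantile normalization and equal totals gave 11 and 14 higher other replication genes and a median member fold change of -0.11 and -0.09. The GC and length correction, with or without the block, changed the sign of *Cdt1* (-0.19), *Pold1* (-0.49), *Lig1* (-0.15) and *Tipin* (0.19). These members had a call after the correction and none as deposited. Quantile normalization changed the sign of *Mcm2* (0.049), which had no call there. Higher calls made up 47.2% of all calls as deposited, 33.4% after the correction and 61.9% with equal totals.

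Leaving out each library gave 6 to 8 higher and 21 to 23 lower members, a median of -0.20 to -0.15, 3 to 6 higher other replication genes (3 without *Tet iTKO* replicate 3), and 1321 to 1655 higher and 1641 to 1728 lower genes. The log2 ratio difference of *Dbf4* to *Cdc7* ran from -0.45 to 0.0072, the latter without *Ctrl* replicate 2. The replicate block gave 9 higher and 24 lower members, as without it, and same-numbered libraries shared no deviation (correlations 0.0007, -0.0054 and -0.0031), so the numbers are not shown to pair them. The causes of these changes were not tested. Values under about 50 normalized counts (*Fen1*, *Pold4*) and 3 libraries a group limit what could be seen.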
